A study of Mus musculus with 2 samples.

Results

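Carbonic anhydrases convert carbon dioxide and water into bicarbonate and a proton, and back again. In the resorbing osteoclast, the carbonic anhydrase II encoded by Car2 supplies the protons that the vacuolar ATPase pumps onto bone, and loss of this enzyme in humans causes osteopetrosis. In red cells the same reaction, run by the abundant cytosolic enzymes of Car1 and Car2, lets carbon dioxide travel in the blood as bicarbonate. The 10 mouse genes described here are Car1, Car2, Car3, Car4, Car5b, Car6, Car8, Car12, Car13 and Car14, out of 19935 genes measured on the arrays. They were taken by symbol from probe sets whose platform annotation names exactly 1 gene. Each of the 10 was covered by 1 probe set, and 0 probe sets named a member together with another gene. The family was chosen with its values in these data known, so all differences between the arrays are given as descriptions.

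The samples were bone marrow mononuclear cells of 6-week-old ddY mice, sorted by antibodies against RANK, the receptor of the osteoclast differentiation factor, and c-Fms, the M-CSF receptor. One group was RANKhigh c-Fmslow and the other RANKlow c-Fmshigh. Neither carried a mutation or treatment named in the labels, and the number of mice behind each sample was not given. There was 1 array per group, and the samples are called here RANKhigh cells and c-Fmshigh cells, so no value has a replicate error and no test was possible. Transcripts of granulocytes, lymphoid cells and erythroid cells were all present in the sorted samples, with the marker values given at the end. Csf1r, which encodes c-Fms, followed its label with intensities of 164 in RANKhigh cells and 821 in c-Fmshigh cells. Tnfrsf11a, which encodes RANK, was not higher in RANKhigh cells, with 104 in RANKhigh cells and 119 in c-Fmshigh cells, a 1.15-fold difference. Both Tnfrsf11a values were near the guide to background described below. The antibodies bind protein, whereas the arrays measure RNA.

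Values are linear array intensities as deposited, and each difference is the log2 intensity of RANKhigh cells minus that of c-Fmshigh cells. As a guide to background, 1195 olfactory and vomeronasal receptor genes were used, whose 95th percentile was 83.6 on the array of RANKhigh cells and 81.8 on that of c-Fmshigh cells. A value under that percentile was not told apart from background. Genes were counted as different at 2-fold or more if 1 of their values was 93.6 or more, which is the median over both arrays. Intensities of different probe sets depend on their probes, so the levels of different members are not ranked against each other.

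Car1 and Car2 were the members that differed by 2-fold or more, and both were higher in RANKhigh cells. Car1, a cytosolic enzyme known as a major protein of red cells, had an intensity of 3544 in RANKhigh cells and 719 in c-Fmshigh cells. This was a 4.93-fold excess (log2 difference 2.30). Car2, the cytosolic high-activity enzyme of red cells, osteoclasts and many epithelia, had 3300.1 in RANKhigh cells and 824 in c-Fmshigh cells. Its excess was 4.01-fold (log2 difference 2.00). Both genes lay above every receptor gene on both arrays, so each transcript was also measured well above background in the c-Fmshigh sample. In sorted bulk samples such as these, fewer cells of a type and less RNA per cell cannot be told apart.

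The excesses of Car1 and Car2 were close to each other and differed by 0.30 on the log2 scale. Without replicate arrays it is not known whether that gap exceeds the spread between samples. Ordered by log2 difference from the RANKhigh side, Car1 stood at place 47 and Car2 at place 83 of the 11089 genes above the level filter. Of those 11089 genes, 4.34% were higher in RANKhigh cells by 2-fold or more, 4.26% were lower by that much and 8.59% differed in either direction. Among the 10 members, 3 passed the level filter, of which 2 were higher by that rule and 0 were lower. The contrast is the one the family was chosen on, so nothing is read from these counts against that background.

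**Figure D1:**
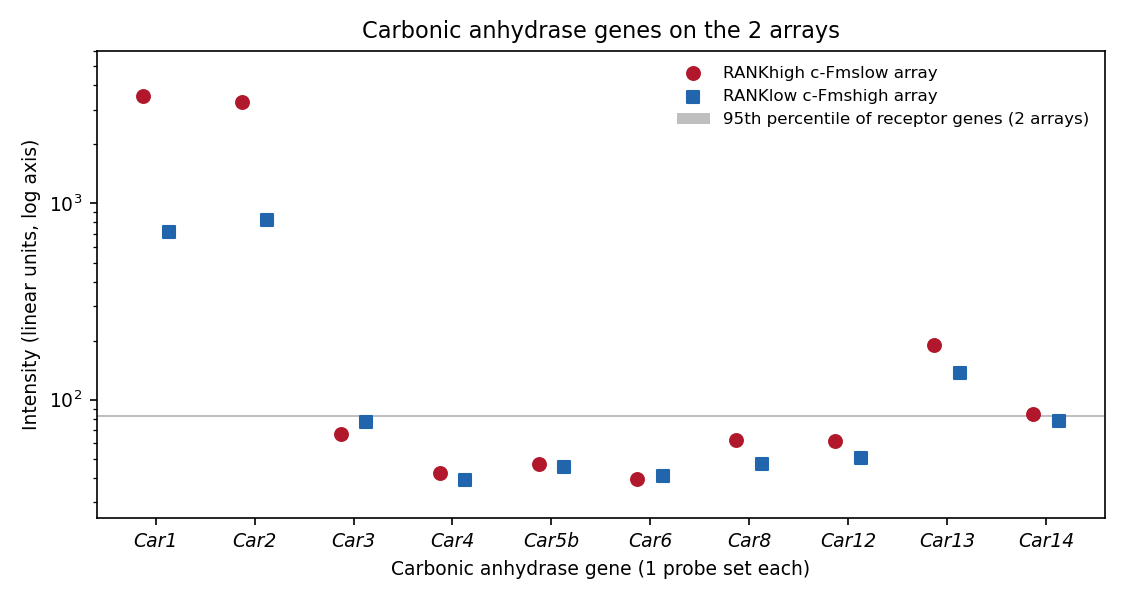
Intensity of each carbonic anhydrase gene on the RANKhigh c-Fmslow array (circles) and the RANKlow c-Fmshigh array (squares), on a log axis, with 1 probe set and 1 array per point. The grey band spans the 95th percentiles of the receptor genes on both arrays (83.6 and 81.8). Car1, Car2 and Car13 lie above it on both arrays, and Car14 lies at its edge.

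The other cytosolic members were Car13 and Car3. Car13, an enzyme found in several tissues, had an intensity of 190 in RANKhigh cells and 137 in c-Fmshigh cells. It was the third and last member above the guide to background on both arrays. Its 1.39-fold excess (log2 difference 0.47) stayed inside the 2-fold limit, at place 1508 in the same order. Car3, an enzyme of low activity known from muscle and fat, had 67.2 in RANKhigh cells and 76.7 in c-Fmshigh cells. Both Car3 values were within the range of the receptor genes, above 89.6% of them in RANKhigh cells and above 93.1% in c-Fmshigh cells.

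The membrane-bound enzymes act on carbon dioxide and bicarbonate outside the cell. Car14, a transmembrane enzyme, had 84.1 in RANKhigh cells and 77.7 in c-Fmshigh cells. Only the first value passed the receptor percentile, and only barely, so that a bound of at least 1.03-fold is all that can be given. Car12, also transmembrane, had 61.7 in RANKhigh cells and 50.7 in c-Fmshigh cells. Car4, which is held in the membrane by a lipid anchor, had 42.3 in RANKhigh cells and 38.8 in c-Fmshigh cells. Neither Car12 nor Car4 was above the receptor genes on either array, so no surface carbonic anhydrase among the members was measured on both arrays.

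The mitochondrial, secreted and non-catalytic members were likewise low on both arrays. Car5b, a mitochondrial enzyme that provides bicarbonate to carboxylases, had 46.8 in RANKhigh cells and 45.5 in c-Fmshigh cells. Car6, which is secreted into saliva, had 39.5 in RANKhigh cells and 40.8 in c-Fmshigh cells. Car8, which lacks the catalytic activity and binds the inositol trisphosphate receptor, had 62.4 in RANKhigh cells and 46.9 in c-Fmshigh cells.

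In all, 3 of 10 members passed the level filter and 7 did not, and 6 members (Car3, Car4, Car5b, Car6, Car8 and Car12) were below the receptor percentile on both arrays. These 6 can be called neither present nor different between the samples. Their values ran from 39.5 to 67.2 in RANKhigh cells and from 38.8 to 76.7 in c-Fmshigh cells, with log2 differences between -0.19 and 0.41. Over all 10 members the median log2 difference was 0.20, beside 0.01 over all genes measured. The median of the members falls between Car4 and Car12, both at background, so nothing is read from it. Of the 10, 8 had a log2 difference above 0 and 2 (Car3 and Car6) below it.

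**Figure D2:**
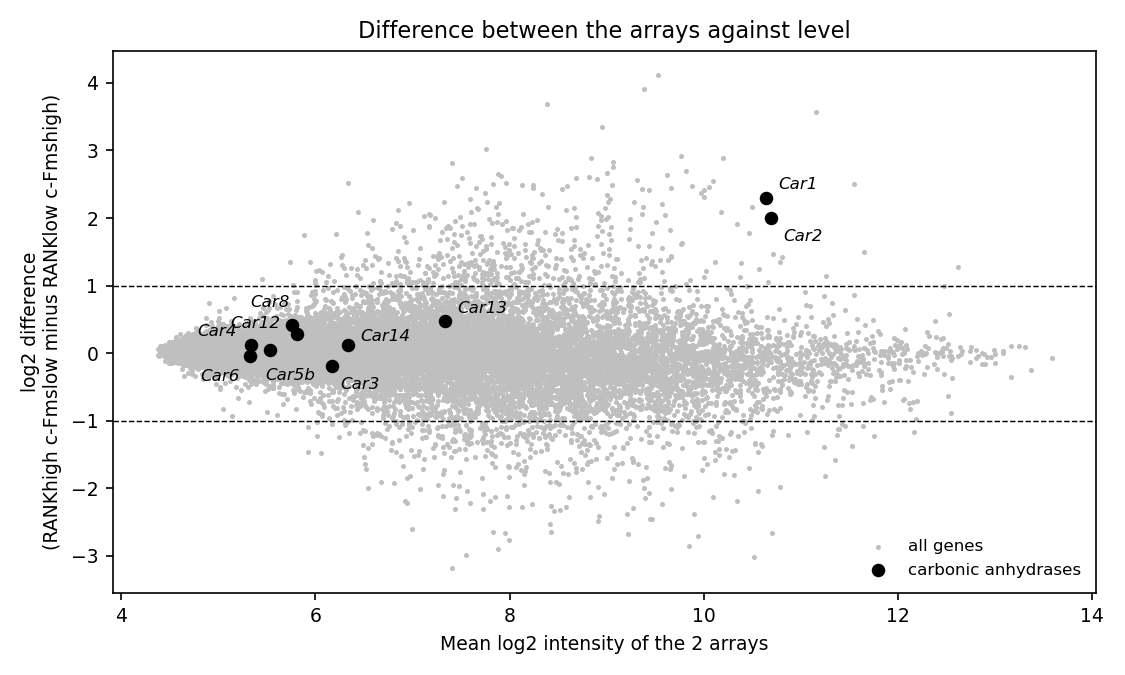
Log2 difference between the arrays (RANKhigh c-Fmslow minus RANKlow c-Fmshigh) against the mean log2 intensity of both arrays, for all 19935 genes (grey) and the 10 carbonic anhydrases (black). Dashed lines mark 2-fold. Car1 and Car2 stand at 2.30 and 2.00, and the other members lie between -0.19 and 0.47.

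Car13, Car1, Car3 and Car2 follow one another in this order on mouse chromosome 3, with no other protein-coding gene between them in the RefSeq annotation of GRCm38.p6. The members of this cluster did not share one pattern. Car1 and Car2 were higher in RANKhigh cells by 4.93-fold and 4.01-fold. Car3, which lies between them, was not measured above background, and Car13 at the end of the row differed by 1.39-fold. The coordinates of the probe sets were not used here, since no build is named for them.

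Of 8 further genes that carry a carbonic anhydrase domain or belong to the family, 0 were at least 2-fold apart, and their median log2 difference was 0.06. They were Car5a, Car7, Car9, Car10, Car11, Car15 and the receptor phosphatase genes Ptprg and Ptprz1, which carry a carbonic anhydrase-like domain. Car15, a lipid-anchored enzyme, had 137 in RANKhigh cells and 113 in c-Fmshigh cells, and Car11, a non-catalytic member, had 106 in RANKhigh cells and 100.2 in c-Fmshigh cells. The other 6 were below the receptor percentile on both arrays, so nothing is read from the median. Car1 and Car2 were the 2 genes past 2-fold among members and these further genes together.

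Genes that handle bicarbonate, protons and gas beside the carbonic anhydrases were compared next. Of 18 measured bicarbonate and chloride transporter genes, 4 passed the level filter and 11 were below the receptor percentile on both arrays. Their median log2 difference of 0.01 is therefore mostly one of background values, and nothing is read from it. By 2-fold or more, 1 was higher in RANKhigh cells and 0 were lower. The 1 gene was Slc4a1, the chloride and bicarbonate exchanger of the red cell membrane, which works next to carbonic anhydrase II. It had 2370 in RANKhigh cells and 444 in c-Fmshigh cells (5.34-fold). Slc4a2, the exchanger that osteoclasts use to release the bicarbonate left over from acid secretion, had 125 in RANKhigh cells and 94.5 in c-Fmshigh cells, a 1.32-fold difference. Of the remaining genes above the level filter, the sulfate transporter gene Slc26a2 had a log2 difference of -0.62 and Slc4a9 one of -0.12.

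Of 19 measured genes for proton, lactate and gas transport, 13 passed the level filter. By 2-fold or more, 3 were higher in RANKhigh cells and 2 were lower, with a median log2 difference of 0.19 over all 19. Rhag, the Rh-associated glycoprotein of the red cell membrane, which conducts ammonia and gas, had 1164 in RANKhigh cells and 196 in c-Fmshigh cells (5.95-fold). Aqp1, the water channel of red cells, which also passes carbon dioxide, had 1157 in RANKhigh cells and 237 in c-Fmshigh cells (4.88-fold). The log2 differences were 2.57 for Rhag, 2.29 for Aqp1 and 2.42 for Slc4a1, beside 2.30 for Car1 and 2.00 for Car2. Whether these differ from one another was not tested. Aqp9, a channel for water and glycerol found in neutrophils, had 320 in RANKhigh cells and 132 in c-Fmshigh cells (2.42-fold). Slc9a9, a sodium and proton exchanger of endosomes, had 204 in RANKhigh cells and 487 in c-Fmshigh cells, 2.39-fold lower. The other lower gene was the monocarboxylate transporter gene Slc16a7, with 104 in RANKhigh cells and 224 in c-Fmshigh cells, named here after its value was seen.

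Promoter sequences are shown for Rhag and Aqp1, which were picked on their values. Slc4a1 also had an excess near those of Car1 and Car2 and is not shown, so the pair is an example only. Both sequences come from RefSeq on GRCm38.p6 and run from 250 bases before to 50 bases after the start of the gene, 5′ to 3′. Rhag lies on the plus strand at chr17:40810899-40811198 and Aqp1 on the plus strand at chr6:55336049-55336348. Capitals mark the letters GATAA, the core read by GATA factors, and CACCC, the core read by erythroid Krüppel-like factor, on either strand (TTATC and GGGTG on the printed strand where the match is on the other).
Rhag: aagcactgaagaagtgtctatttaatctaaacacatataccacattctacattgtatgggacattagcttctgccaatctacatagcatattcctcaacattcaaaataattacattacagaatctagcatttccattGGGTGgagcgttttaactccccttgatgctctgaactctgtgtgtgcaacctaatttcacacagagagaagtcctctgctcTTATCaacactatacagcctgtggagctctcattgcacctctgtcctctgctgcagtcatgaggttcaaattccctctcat
Aqp1: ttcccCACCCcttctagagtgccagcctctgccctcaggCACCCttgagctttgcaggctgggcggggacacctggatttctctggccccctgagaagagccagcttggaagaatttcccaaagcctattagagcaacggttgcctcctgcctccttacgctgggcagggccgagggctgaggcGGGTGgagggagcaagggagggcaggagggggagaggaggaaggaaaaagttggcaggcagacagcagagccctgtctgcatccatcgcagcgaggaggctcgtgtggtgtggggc

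The Rhag window held 1 GATAA match, which begins 31 bases before the start of the gene, and 1 CACCC match 112 bases before it. The Aqp1 window held 0 GATAA and 3 CACCC matches. The motifs do not overlap one another in these windows. Of 32851 promoter windows of the same length, 25.4% held GATAA and 57.5% held CACCC on either strand. Of the members, Car4, Car5b, Car6, Car12 and Car14 had a window in the table, all of them genes at or below the guide to background. Of these 5, 0 held GATAA and 3 (Car4, Car6 and Car14) held CACCC. The matches describe letters only. Car1, Car2, Car3, Car8 and Car13 had no window among these, so their promoters were not searched for either motif.

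Genes of the vacuolar ATPase, listed as a whole and not only as its osteoclast form, mostly did not share the direction of Car2. Of 24 measured genes of this pump and of lysosomal chloride transport, 20 passed the level filter. By 2-fold or more, 0 were higher in RANKhigh cells and 2 were lower. Over all genes above that filter the shares were 4.34% and 4.26%. A log2 difference below 0 was found in 20 of the 24 (median -0.21), beside a median of 0.01 over all genes measured. Many of these differences were small, and 4 of the 24 genes were below the receptor percentile on both arrays. What the list says of osteoclast cells was not tested. Atp6v1a, the catalytic subunit, had 314 in RANKhigh cells and 883 in c-Fmshigh cells (2.81-fold lower). Atp6v1b2, its partner in the pump head, had 746 in RANKhigh cells and 1739 in c-Fmshigh cells (2.33-fold lower). Atp6v0a1, a membrane subunit, had 531 in RANKhigh cells and 275 in c-Fmshigh cells (log2 difference 0.95), and Atp6v0d1 had a log2 difference of -0.84. Tcirg1, the membrane subunit of the osteoclast pump, had 327 in RANKhigh cells and 367 in c-Fmshigh cells. Clcn7, the chloride and proton exchanger that balances the pumped charge, had 98.1 in RANKhigh cells and 123 in c-Fmshigh cells.

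Enzymes that use bicarbonate as a substrate gave a median log2 difference of -0.05 over 10 genes, of which 7 passed the level filter. By 2-fold or more, 0 were higher and 1 was lower. Acaca, acetyl-CoA carboxylase of fatty acid synthesis, had 105 in RANKhigh cells and 224 in c-Fmshigh cells (2.15-fold lower). Its 2 probe sets had log2 differences of -1.24 and -0.96, and the brighter one alone stayed just inside 2-fold. The dimmer one had 58.9 in RANKhigh cells, below the receptor percentile, so its difference is not exact and the 2-fold call for Acaca rests on a value at background. Pcx, the mitochondrial pyruvate carboxylase that takes bicarbonate from the mitochondrial carbonic anhydrases, had 107 in RANKhigh cells and 83.9 in c-Fmshigh cells. Cps1, the carbamoyl phosphate synthetase of the liver urea cycle, was below the receptor percentile on both arrays, as Car5b was. Of the others above the level filter, the propionyl-CoA carboxylase gene Pcca had a log2 difference of -0.47 and the pyrimidine synthesis gene Cad one of -0.22.

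**Figure D3:**
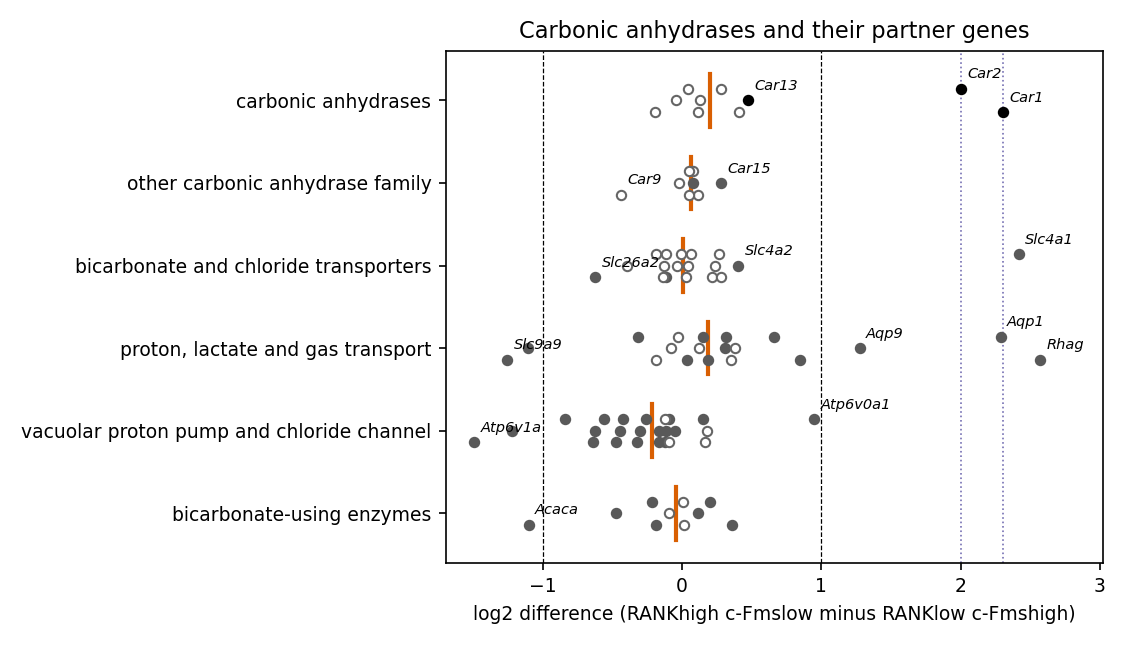
Log2 difference (RANKhigh c-Fmslow minus RANKlow c-Fmshigh) of the carbonic anhydrases and of 5 lists of related genes, 1 point per gene. Filled points passed the level filter, open points did not, bars are list medians over all measured genes, dashed lines mark 2-fold and dotted lines the values of Car2 and Car1. Slc4a1, Rhag and Aqp1 lie near Car1 and Car2, whereas the vacuolar pump genes lie mostly below 0.

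Markers of cells that could carry these transcripts were set beside Car1 and Car2. The marker lists were chosen with earlier results of these data known, so their counts are descriptions only. Of all genes above the level filter, 4.34% were higher in RANKhigh cells by 2-fold or more and 4.26% were lower. All 17 measured erythroid markers had a log2 difference above 0 and 16 were higher in RANKhigh cells by 2-fold or more, with a median of 2.35 and a range from 0.71 to 2.92. Their summed intensity was 18297 in RANKhigh cells and 4377 in c-Fmshigh cells, and 0 of them lay below the receptor percentile on both. A sum depends on the probes and on the number of genes listed, so sums of different lists are not compared. Cldn13, a claudin of erythroid cells, was 7.55-fold higher, Icam4, a red cell adhesion protein, 7.43-fold and Rhd, a Rh blood group protein, 6.75-fold. The excesses of Car1 and Car2 lay inside this range: 9 of 17 erythroid markers had a log2 difference at or over that of Car1 and 10 of 17 at or over that of Car2. The part of erythroid cells in the Car1 and Car2 values was not tested.

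The osteoclast markers were listed without Car2. Tcirg1, Clcn7, Ostm1 and Atp6v0d2 among them are also in the vacuolar pump list, so the lists share these values. Of 14 measured, 8 passed the level filter. By 2-fold or more, 2 were higher in RANKhigh cells and 0 were lower, with a median log2 difference of -0.05 over all 14. Of the 8 that were above the receptor percentile on both arrays, 0 reached the log2 difference of Car2. Acp5, the tartrate-resistant acid phosphatase, had 546 in RANKhigh cells and 188 in c-Fmshigh cells (2.90-fold). Mmp9, a gelatinase that neutrophils also store, had 277 in RANKhigh cells and did not exceed the receptor percentile in c-Fmshigh cells (at least 3.38-fold), so that it cannot be placed above or below Car1 and Car2. The integrin gene Itgb3 had a log2 difference of -0.67. The summed intensity of the list, background values included, was 2244 in RANKhigh cells and 1893 in c-Fmshigh cells. Of the 14, 5 were below the receptor percentile on both arrays, namely Ctsk, Calcr, Dcstamp, Atp6v0d2 and Oscar, genes of the differentiating or mature osteoclast that are named here because of these values.

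Marker transcripts of other cell types also differed between the arrays, again in lists chosen with earlier results known. B lineage markers were higher by 2-fold or more in 13 of 13 (median log2 difference 1.94), neutrophil markers in 9 of 15 (1.28) and eosinophil markers in 5 of 6 (2.72). The neutrophil list was not uniform: Mpo, Prtn3 and Ctsg, named here because of these values, had log2 differences below 0, down to -0.57. Its largest excess was that of Retnlg (17.3-fold), and the largest of the eosinophil list was that of Prg3 (15.0-fold). Both were larger than that of Cldn13, the largest of the erythroid list. Basophil and mast cell markers passed 2-fold in 5 of 10 (1.02), T and NK cell markers in 6 of 9 (1.36) and megakaryocyte markers in 1 of 6 (0.71). The level filter was passed by 7 of the basophil and mast cell markers and 8 of the T and NK cell markers. Monocyte markers were lower in RANKhigh cells by 2-fold or more in 7 of 11 (-1.57). Macrophage markers, of which 10 passed the level filter, were divided, with 2 of 12 higher and 3 lower by that much (0.01). Summed intensities are given for each list by itself and do not measure how much of a cell type was present. The neutrophil sum was 49451 in RANKhigh cells and 21469 in c-Fmshigh cells. That of the B lineage list was 16198 in RANKhigh cells and 4375 in c-Fmshigh cells. The eosinophil sum was 12178 in RANKhigh cells and 1161 in c-Fmshigh cells, of which Prg2 alone had 7858 and 661. Log2 differences at or over that of Car2 also occurred in 6 neutrophil, 5 B lineage, 3 eosinophil, 1 basophil and mast cell and 1 T and NK cell markers. The eosinophil and the basophil and mast cell counts are minimums, since 2 and 4 of their markers, Epx and Cpa3 among them, were at background in c-Fmshigh cells and have only a bound below the fold of Car2. The part of these cells in the Car1 and Car2 values was likewise not tested.

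**Figure D4:**
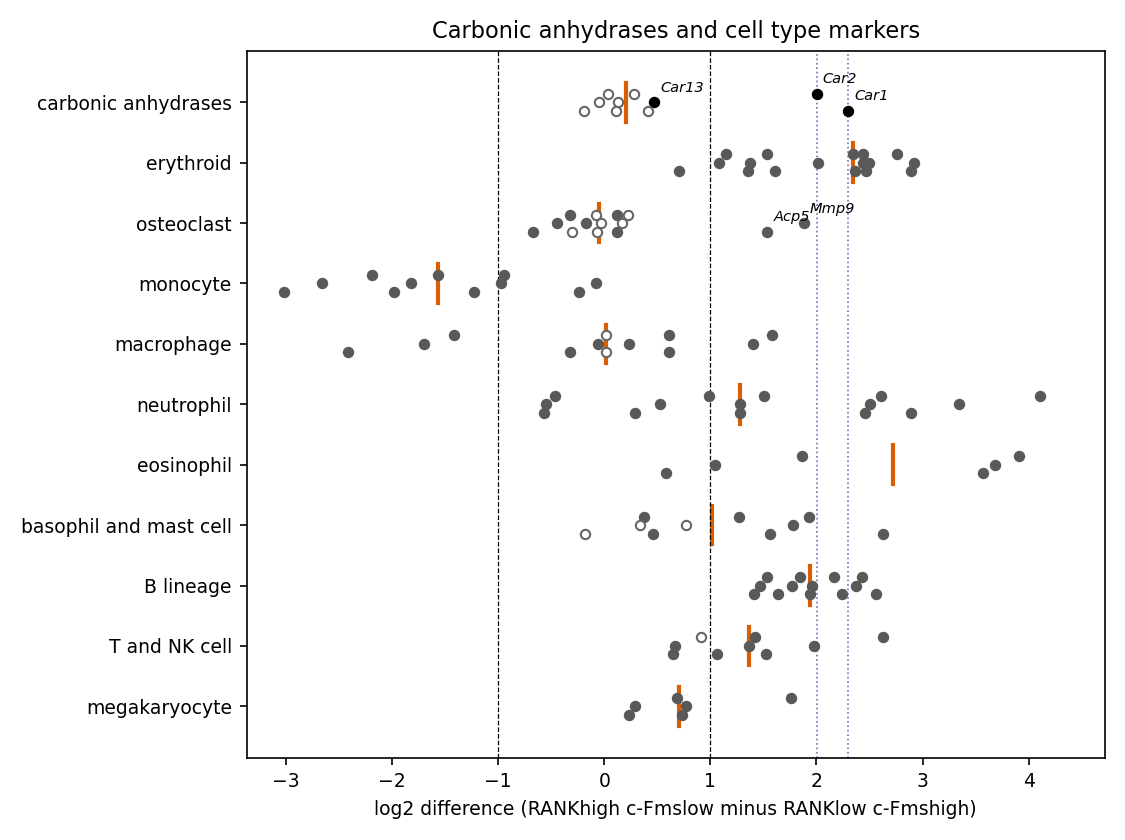
Log2 difference (RANKhigh c-Fmslow minus RANKlow c-Fmshigh) of the carbonic anhydrases and of 10 lists of cell type markers, 1 point per gene. Filled points passed the level filter, open points did not, bars are list medians, dashed lines mark 2-fold and dotted lines the values of Car2 and Car1. Car1 and Car2 fall within the erythroid, neutrophil, eosinophil, basophil and mast cell, B lineage and T and NK cell ranges. They lie above the 8 osteoclast markers measured on both arrays, while the point of Mmp9 stands for a bound.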

How the data were processed

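The deposited values are linear intensities of 2 single-channel arrays, 1 per sorted population. GCOS 1.4 and RMA are named in the submitters' processing notes, with no role stated for either. RMA itself gives log2 values, and how the table became linear is not stated, so taking log2 of it assumes a plain linear scale. The 2016 platform annotation gave a single gene for 21780 of the 28815 probe sets. Probe sets of a gene were averaged as log2 values of the deposited intensities, with no pseudocount or further scaling. With 1 array per group, no test was made. Folds are bounds where 1 value lay below the receptor percentile on its own array. Named are all members, of each partner list the 4 largest differences above the level filter plus Slc4a1, Slc4a2, Clcn7, Tcirg1, Pcx and Cps1, and of each marker list up to 3. Members and lists were chosen with earlier results of these data known. The size rule was checked on simulated data with planted differences. With 1 array per group, that check cannot cover the spread between samples. Alternatives were array centring, quantile normalization, background subtraction, a pseudocount, the brightest probe set, other level filters and a 1.5-fold rule. Array number limits the precision. Python 3.11.15, numpy 2.4.6 and pandas 2.3.3 were used.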

Additional observations from a re-analysis of the deposited data

How the results depend on the processing

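The count of 2 carbonic anhydrases higher in RANKhigh cells by 2-fold or more, and 0 lower, was the same under all 8 alternatives, the 1.5-fold rule included. Not all of these could change it. Each member has 1 probe set, so taking the brightest probe set left every member as it was. The other level filters and the 1.5-fold rule were less strict, so they could add members but not remove Car1 or Car2. The excess of Car1 ran from 4.67-fold (50 added to each value) to 5.26-fold (quantile normalization), and that of Car2 from 3.83-fold to 4.29-fold under the same settings. With the receptor median subtracted, Car8 had a log2 difference of 1.14, Car12 of 0.70 and Car3 of -0.43, all at values not told apart from background, and Car13 stood at 1.51-fold. Marker medians moved with the treatment of background: under subtraction and with 50 added, the erythroid median was 2.54 and 1.89, the eosinophil median 3.10 and 2.25, the basophil and mast cell median 1.55 and 0.73 and the T and NK cell median 1.62 and 1.11. The neutrophil median was 1.498 under subtraction and the B lineage median 1.71 with 50 added. Of the vacuolar pump genes, 1 was higher by 2-fold or more under subtraction, and at 1.5-fold 1 was higher and 5 were lower. The 1.5-fold rule also gave 5 higher genes for proton, lactate and gas transport, 4 higher macrophage and 4 higher megakaryocyte markers, and 1 lower gene each among the bicarbonate and chloride transporters and the osteoclast markers. Of the 2 proton, lactate and gas transport genes lower by 2-fold or more, 1 stayed past the rule with 50 added. Acaca, the carboxylase past it, was inside 2-fold with 50 added or with the brightest probe set. Moves were judged against 0.19, the median gap between the log2 differences of 2 probe sets of a gene, which covers disagreement within an array only. No paired analysis was possible because there was 1 array per group.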

Other observations

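Genes next to the carbonic anhydrase cluster on chromosome 3 were looked up by position, outside the naming rule. On the Car13 side, Lrrcc1 had an intensity of 310 in RANKhigh cells and 321 in c-Fmshigh cells. E2f5 had 119 in RANKhigh cells and 125 in c-Fmshigh cells, and Rbis had 131 in RANKhigh cells and 145 in c-Fmshigh cells. None of these 3 differed by 2-fold. On the Car2 side the next protein-coding gene, Gm9733, had 280.2 in RANKhigh cells and 1010 in c-Fmshigh cells. It was 3.60-fold lower, in the opposite direction to Car2.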
